A study of Danio rerio with 4 samples.

Results

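The genes described here are those of zebrafish chromosome 5 whose loci start between 50 and 70 Mb on the Zv9 build and whose RNA was measurable in the embryo at 6 somites. A gene was taken when its locus spanned at least 300 bp, its estimate had the status OK in all 4 libraries and its mean over the 4 libraries was at least 1 FPKM (fragment density corrected for transcript length and library depth). Of 394 loci of the region in the deposited table, 353 spanned 300 bp or more, all 353 with usable estimates, and 171 of these reached 1 FPKM. A further 6 (tbx2a, atp6v1g1, col4a3bpa, cldn15b, mrps30 and cdc26) were left out by name or name prefix, which gave 165 loci of the 32538 in the table, for 164 gene IDs, since snapc4 is listed at 2 loci. The genes were thus selected on 2 measured values, estimate status and mean FPKM, beside position, span and name, and the stretch itself was proposed with genotype differences of these 4 libraries already known. RNA had been measured in 2 libraries of tbx1 mutants carrying the vgo allele, called null in the labels' protocols, and in 2 libraries of wild-type controls, all of whole embryos at 12 hours after fertilization. A piece of tail tip and some yolk had been cut off each embryo for genotyping. Neither group had any other labelled allele or treatment. The labels do not say whether a library was a pool, whether controls were siblings of mutants, or which strain was used, so p-values measure the spread between these libraries, which may be technical.

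Tbx1 is a T-box transcription factor of pharyngeal mesoderm, endoderm and the heart field, and its human counterpart lies in the interval deleted in DiGeorge syndrome. The region is not a pathway: its genes work in transport, mitochondria, RNA processing, cell division and signalling, and what they share is a place on the chromosome that also carries tbx1. Genes of one chromosome are inherited together unless recombination separates them, so embryos sorted by one allele can also share DNA at other loci of that chromosome, less so with distance. The first gene of the region starts 33.5 Mb from tbx1. Which parental DNA the libraries carried here was not analysed, and a response to the loss of Tbx1 and a difference in linked DNA cannot be told apart in this design.

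Both libraries labelled mutant had less tbx1 RNA than both controls. tbx1 was at 4.91 and 4.52 FPKM in the mutants, against 9.08 and 9.14 FPKM in the controls (log2 difference -0.88, SE 0.0910, adjusted p = 0.227 in limma over all loci tested). All 9 marker lists of tissues present at this stage were detected, and 0 of 5 matched markers of tissues not yet formed reached 1 FPKM. The summed level of 6 somite and presomitic markers was 106 and 155 FPKM in mutants 1 and 2, against 111 and 174 FPKM in controls 1 and 2, so it followed the library number. Summed markers did not overlap between genotypes in 2 of the 9 lists. The yolk syncytial layer list, with 3 of its 5 matched markers at 1 FPKM or more, summed to 5680 and 5079 FPKM in the mutants, against 6114 and 5760 FPKM in the controls. The neural plate list, with all 6 markers at 1 FPKM or more, summed to 323 and 324 FPKM in the mutants, against 317 and 317 FPKM in the controls. The part of these lists in the genotype differences was not tested. The spacing of low values put the depth of mutant 1, mutant 2 and control 2 at 0.829, 0.722 and 0.841 of that of control 1; read totals were not used here.

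The genes covered a wide range of abundance. Their means ran from 1.03 to 292 FPKM with a median of 6.64 FPKM, against a median of 7.95 FPKM over the 12728 loci that pass the same rule anywhere in the genome. At the top stood si:ch211-209a2.1, a gene with no descriptive name whose locus contains 4 small nucleolar RNA loci, at 280 and 283 FPKM in the mutants, against 288 and 318 FPKM in the controls. It was followed by ccnb1, which encodes the mitotic cyclin B1, at 212 and 246 FPKM in the mutants, against 213 and 231 FPKM in the controls, and by the transcription coactivator gene edf1 at 207 and 222 FPKM in the mutants, against 198 and 228 FPKM in the controls. For ccnb1 and edf1 the groups overlapped, and for si:ch211-209a2.1 both mutants were below both controls by less than the gap between the controls. Of the 4 small nucleolar RNA loci within si:ch211-209a2.1, SNORA32 was listed at a mean of 521 FPKM. Reads of overlapping loci could be split either way, so the value of si:ch211-209a2.1 is uncertain. Next came the annexin genes anxa1c and anxa1b, the selenoprotein gene sepw1 (current symbol selenow1), the phosphatase 2A scaffold gene ppp2r1a, the RNA polymerase II subunit gene polr2j, MIA and the stress granule gene tia1, with means from 84.2 FPKM for tia1 to 200 FPKM for anxa1c. At 50 FPKM or more there were 19 genes, and all 19 had a genotype difference within 0.3 on the log2 scale. The closest match at such levels was stip1, encoding a co-chaperone of Hsp70 and Hsp90, at 55.6 and 58.8 FPKM in the mutants, against 55.7 and 58.4 FPKM in the controls. lsmd1 followed at 52.2 and 55.3 FPKM in the mutants, against 48.4 and 59.2 FPKM in the controls.

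The main comparison asked which of these genes differed between mutants and controls. None passed an adjusted p of 0.05 (adjusted p = 0.99995 in limma for every one of the 165, adjusted over all 13448 loci tested, of which 0.0669% passed). An unadjusted limma p under 0.05 was reached by 17 of the 165 genes (10.3%), against 1.99% of all loci tested. Of the 17, 11 were lower in the mutants (background 0.907%) and 6 were higher (background 1.08%). The lower genes were CABZ01044346.1, rab14, papd4, arsk, coq4, si:dkey-172m14.1, alg9, bspry, wbscr16, FDXACB1 and gatsl2, and the higher ones were kntc1, si:dkeyp-117b8.4, slc25a46, zgc:92773, hnrpkl and nrarpb. In each of the 17, both mutants lay on one side of both controls. Among the lower genes, CABZ01044346.1, rab14 and papd4 had mutant means of 0.997, 0.729 and 0.835 FPKM. The rule took them in only through the controls, where they were higher. They are included in the counts of 17 and 11 and in the 10.3%, and no count was made without them. Since the region was proposed with genotype results known, these shares describe it and are not independent evidence. With 2 libraries a group, the smallest p that an exact two-sided permutation test could reach is 0.333, and the unadjusted threshold rests on limma's pooled spread. The count depended on single libraries: it was 6 without mutant 1, 7 without control 1, 11 without mutant 2 and 15 without control 2, where the backgrounds were 2.11%, 2.69%, 2.31% and 2.11%. All 17 kept the sign of their difference in every alternative in which they were tested. Leaving out a library could not turn it, since both mutants lay on one side of both controls. In bulk embryos, fewer cells that express a gene and less RNA per cell cannot be told apart.

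**Figure D1:**
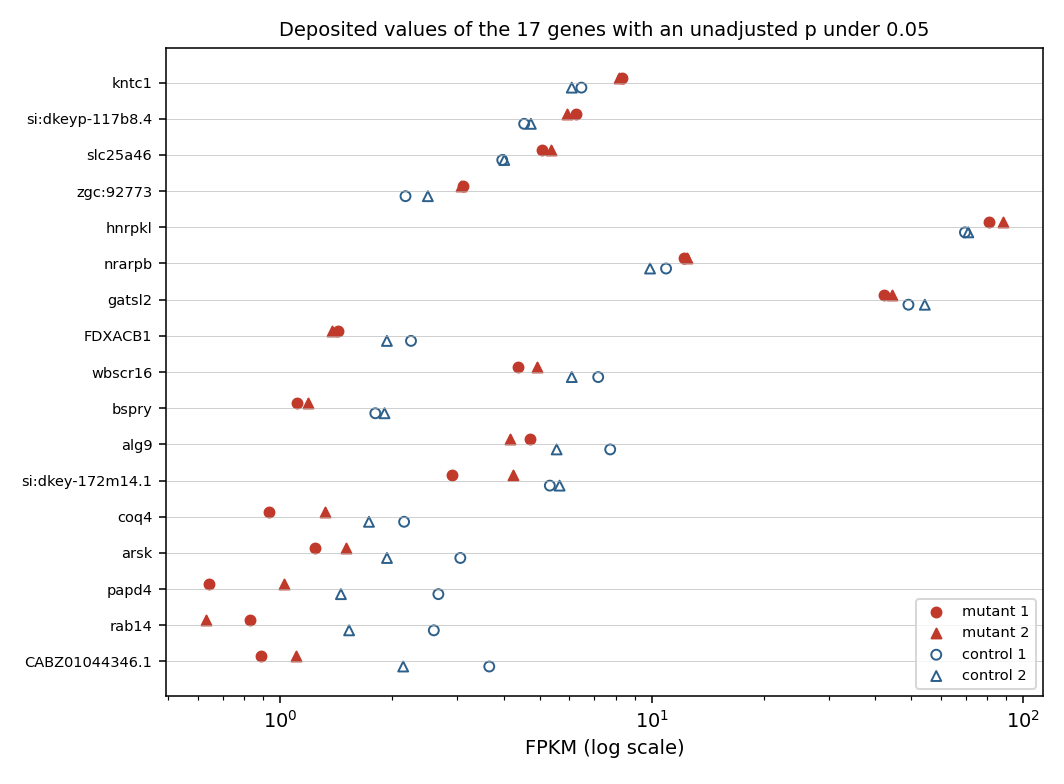
Each row is one of the 17 genes with an unadjusted limma p under 0.05, ordered by log2 difference, and the x axis gives FPKM on a log scale. Filled red symbols are the mutants and open blue symbols the controls (circles for libraries numbered 1, triangles for libraries numbered 2). The groups do not overlap in any row, and most of the lower genes lie under 5 FPKM.

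The largest difference of a gene with a descriptive name was that of rab14, given here beside genes of glycosylation and the lysosome. rab14 (ENSDARG00000074246, chromosome 5 from 66590140 to 66599720), which encodes a small GTPase acting between Golgi and endosomes, was at 0.828 and 0.631 FPKM in the mutants, against 2.59 and 1.53 FPKM in the controls. Both mutants were low and the controls were 1.06 FPKM apart, with control 1 the higher. The mutant mean of rab14 was 0.729 FPKM, so it passed the limit of 1 FPKM only through the controls (mean 2.06 FPKM). The log2(FPKM + 0.5) difference, mutant minus control, was -1.03 (SE 0.258, 95% interval -1.71 to -0.36), and the added 0.5 draws such low genes toward 0. alg9 (ENSDARG00000012840, 59092925 to 59112290), a mannosyltransferase gene of N-glycan assembly in the endoplasmic reticulum, had 4.71 and 4.16 FPKM in the mutants, against 7.73 and 5.55 FPKM in the controls (log2 -0.52, SE 0.178, 95% interval -0.99 to -0.05). Again control 1 was highest. Other glycosylation genes, chosen after their values were seen, were man2a1 (0.20, 95% interval -0.17 to 0.58), pomt1 (-0.06) and gcnt4a (-0.08). Both mutants of man2a1 lay above both controls. arsk (ENSDARG00000059714, 52585059 to 52597469), which encodes a lysosomal sulfatase, had 1.24 and 1.51 FPKM in the mutants, against 3.05 and 1.94 FPKM in the controls (log2 -0.66, SE 0.229, 95% interval -1.26 to -0.05). VPS37D, an ESCRT-I subunit gene, was instead at 11.4 and 10.3 FPKM in the mutants, against 6.80 and 9.92 FPKM in the controls, but its difference of 0.37 had a 95% interval of -0.13 to 0.87. Mutant 2 and control 2 of VPS37D were close together. ap2b1, encoding the beta adaptin of the plasma membrane clathrin adaptor, had a difference of 0.05. Of the 4 genes in the list of membrane traffic and lysosome genes, rab14 was the one under an unadjusted limma p of 0.05 (background 1.99%). alg9 was in the list of metabolic enzymes, and arsk matched no list.

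Mitochondrial genes were under the threshold in both directions. slc25a46 (ENSDARG00000035181, 57330075 to 57342604), a carrier-family protein of the outer membrane that acts in mitochondrial fission, was at 5.05 and 5.37 FPKM in the mutants, against 3.96 and 4.01 FPKM in the controls. Within each group the values were close, and the difference was 0.35 (SE 0.0966, 95% interval 0.09 to 0.60). coq4 (ENSDARG00000059759, 63023749 to 63031565), required for coenzyme Q synthesis, was at 0.931 and 1.32 FPKM in the mutants, against 2.16 and 1.73 FPKM in the controls (log2 -0.59, SE 0.197, 95% interval -1.11 to -0.08). wbscr16 (current symbol RCC1L; ENSDARG00000059583, 64467115 to 64494428), a mitochondrial protein with RCC1-like repeats, was at 4.37 and 4.90 FPKM in the mutants, against 7.18 and 6.09 FPKM in the controls (log2 -0.47, SE 0.124, 95% interval -0.80 to -0.15). Neither gene's groups overlapped. wbscr16 did not match the list of mitochondrial proteins. Of the 6 genes in that list, 1 was higher (background 1.08%) and 1 lower (background 0.907%) at this threshold, with a list median of -0.03. Both mutants lay above both controls in 2 of the 6 (background 15.6%) and below both in 3 (background 9.14%). The import genes TIMM22 (-0.12) and pmpca (0.06) and the rRNA methylase gene mrm1 (-0.42, 95% interval -0.95 to 0.12) did not reach the threshold. COQ2, a gene of the list chosen after its values were seen, did not reach it either (-0.30, 95% interval -0.74 to 0.15). surf4l, an endoplasmic reticulum cargo receptor gene, matched this list only through its symbol.

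The list of RNA processing and translation genes had 1 gene under the unadjusted threshold, hnrpkl, and papd4 and FDXACB1, given beside it, were in no list. hnrpkl (current symbol HNRNPK; ENSDARG00000007034, 56981111 to 57002504), a poly(C)-binding ribonucleoprotein gene, was at 80.7 and 88.3 FPKM in the mutants, against 69.7 and 71.2 FPKM in the controls. Both mutants lay above both controls, and the difference was 0.26 (SE 0.0741, 95% interval 0.07 to 0.45). papd4 (ENSDARG00000055385, 53694116 to 53708973), a cytoplasmic poly(A) polymerase gene, was at 0.643 and 1.03 FPKM in the mutants, against 2.67 and 1.46 FPKM in the controls (log2 -0.91, SE 0.302, 95% interval -1.71 to -0.12). Its mutant mean was 0.835 FPKM, so it passed the limit of 1 FPKM only through the controls (mean 2.06 FPKM). FDXACB1 (ENSDARG00000095750, 59075535 to 59087447), encoding a protein with a ferredoxin-fold anticodon-binding domain, was at 1.43 and 1.38 FPKM in the mutants, against 2.25 and 1.94 FPKM in the controls (log2 -0.44, SE 0.143, 95% interval -0.82 to -0.07). These low genes had no overlap between groups, with control 1 above control 2 in both. PPIL3, a peptidyl-prolyl isomerase gene of the spliceosome, was at 79.8 and 75.4 FPKM in the mutants, against 90.4 and 85.9 FPKM in the controls (log2 -0.18, 95% interval -0.37 to 0.00), just outside the threshold; by symbol it was in the stress list. Of the 7 genes in the RNA processing and translation list, hnrpkl was the 1 under it (background 1.99%), 3 had both mutants above both controls (background 15.6%) and 0 had both below (background 9.14%). With so few genes these counts describe the list only. The other named members were prpf4 of the U4/U6 particle (0.17), lsmd1 (0.00) and polr2j (-0.11).

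The lowest p of a gene with a descriptive name was that of kntc1. kntc1 (ENSDARG00000028056, 69428449 to 69508909), encoding a kinetochore protein of the spindle checkpoint, was at 8.31 and 8.15 FPKM in the mutants, against 6.47 and 6.09 FPKM in the controls. The 4 values formed tight pairs, and the difference was 0.36 (SE 0.0865, 95% interval 0.14 to 0.59). kntc1 matched no list by symbol. In the list of 6 chromatin, replication and repair genes, the kinetochore gene MIS12 was at 35.8 and 30.7 FPKM in the mutants, against 29.6 and 28.4 FPKM in the controls (log2 0.19, 95% interval -0.07 to 0.45). The nucleoporin gene nup88 differed by -0.04, brd3b, a bromodomain gene that reads acetylated histones, by 0.12, the DNA ligase gene LIG3 by 0.07 and ccnb1 by 0.04. The list median was 0.10, with 3 of 6 genes above both controls in both mutants (background 15.6%), 0 below both (background 9.14%), and 0 under an unadjusted p of 0.05.

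The list of secreted signals, receptors and regulators had 1 gene under the unadjusted threshold (background 1.99%), nrarpb, which was higher in the mutants. gatsl2 and bspry, both lower, were in no list. nrarpb (ENSDARG00000018958, 69012102 to 69015469) encodes an ankyrin-repeat protein that is induced by Notch and dampens it. Its values were 12.2 and 12.5 FPKM in the mutants, against 10.9 and 9.90 FPKM in the controls (log2 0.24, SE 0.0872, 95% interval 0.01 to 0.47). The receptor gene notch1b, chosen after its values were seen, was at 3.03 and 2.83 FPKM in the mutants, against 3.42 and 2.30 FPKM in the controls, with both mutants between the controls. gatsl2 (current symbol CASTOR2; ENSDARG00000018985, 64424433 to 64466432) belongs to the family of arginine sensors upstream of mTORC1. It was at 42.2 and 44.4 FPKM in the mutants, against 49.1 and 54.3 FPKM in the controls (log2 -0.25, SE 0.0816, 95% interval -0.47 to -0.04). bspry (ENSDARG00000059758, 63031926 to 63047118), encoding a B-box and SPRY domain protein, was at 1.11 and 1.19 FPKM in the mutants, against 1.80 and 1.91 FPKM in the controls (log2 -0.52, SE 0.142, 95% interval -0.89 to -0.14). Its 2 mutant values and its 2 control values were each close. The 4 genes of the signals list had a median of 0.08, with the adhesion receptor gene gpr98 (current symbol ADGRV1) at 0.11 and the G protein gene gna14 at 0.04. Of 6 genes in the kinase and phosphatase list 0 were under the unadjusted threshold, with the ciliary phosphoinositide phosphatase gene inpp5e at 0.15 and ppp2r1a at -0.01. prkrip1 (-0.09) matched that list only through its symbol. The kinase gene fer (0.11) and the phosphatase gene ppm1db (-0.05) were in no list.

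No gene in the list of transcription factors was under the unadjusted threshold. otpb, a homeobox gene of hypothalamic neurons, was at 1.49 and 1.47 FPKM in the mutants, against 1.86 and 1.72 FPKM in the controls (log2 -0.21, 95% interval -0.57 to 0.15). The basal factor gene taf6 was at 15.4 and 16.1 FPKM in the mutants, against 15.7 and 15.9 FPKM in the controls, with the controls inside the mutant range. mn1b, a transcriptional coregulator gene outside the list, was at 5.46 and 5.97 FPKM in the mutants, against 4.91 and 4.51 FPKM in the controls (log2 0.26, 95% interval -0.02 to 0.53). Of the list's 5 genes 0 were under the threshold, and the median was -0.00.

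In the transporter, enzyme, adhesion, stress and ubiquitin lists 1 gene, alg9, was under the unadjusted threshold (background 1.99%). The 5 genes of the transporter list had a median of -0.06, the value of ryroxd1, which matched the list only through its symbol. Among the others were slc37a2, a sugar-phosphate exchanger gene (log2 -0.12), and the glucose transporter gene slc2a8 (-0.24). The 7 metabolic enzyme genes had a median of 0.02 with alg9 under the threshold. Of the others bckdk, the kinase of the branched-chain ketoacid dehydrogenase, differed by 0.11 and the glycine decarboxylase gene GLDC by 0.02. The 10 genes of the cytoskeleton, adhesion and matrix list had a median of 0.05 and none under the threshold, with CCDC15 at 0.20. ankrd31, first by p (log2 0.18), matched that list only through its symbol. The stress list of 3 genes, PPIL3, the crystallin gene cryabb (-0.12) and stip1 (0.00), had a median of -0.12, and 0 of the 3 were under the threshold. That median is the value of cryabb, whose locus overlaps C5H11orf1. Of 2 ubiquitin genes 0 were under it, with the anaphase-promoting complex gene anapc2 at 0.05 and fbxw5 at -0.04. In none of these function lists were more than 2 genes under the threshold, and none of the lists was tested as a set.

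The list of genes whose symbols come only from clones or sequencing projects held 4 of the 17 differences among 19 loci (background 1.99%). Genes listed with a gene ID alone were outside this list. Some of its loci have a descriptive current symbol, such as ABR for CU928117.1. CABZ01044346.1 (ENSDARG00000074439, 59954361 to 59971924) was at 0.889 and 1.11 FPKM in the mutants, against 3.65 and 2.14 FPKM in the controls. Its difference of -1.15 (SE 0.259, 95% interval -1.83 to -0.47) was the largest of the region. With a mutant mean of 0.997 FPKM, it passed the limit of 1 FPKM only through the controls (mean 2.90 FPKM). si:dkey-172m14.1 (ENSDARG00000052693, 50802440 to 50811753) was at 2.91 and 4.24 FPKM in the mutants, against 5.32 and 5.65 FPKM in the controls (log2 -0.58, SE 0.184, 95% interval -1.06 to -0.09). Here the spread lay in the mutants. si:dkeyp-117b8.4 (current symbol zbed4l2; ENSDARG00000094214, 65006225 to 65009386) was at 6.24 and 5.93 FPKM in the mutants, against 4.54 and 4.73 FPKM in the controls (log2 0.36, SE 0.0932, 95% interval 0.11 to 0.60). zgc:92773 (ENSDARG00000035215, 63582312 to 63622810) was at 3.11 and 3.06 FPKM in the mutants, against 2.17 and 2.5 FPKM in the controls (log2 0.34, SE 0.123, 95% interval 0.02 to 0.66). In both of these the mutants were above both controls. Others that missed the threshold were si:dkey-261j4.5 (current symbol drll.3) at 0.40, CABZ01049025.1 at -0.24 and C5H11orf1 at 0.27. C5H11orf1 (mean 65.4 FPKM) overlaps cryabb (mean 1.89 FPKM) by position. Reads of overlapping genes could be split either way, so both values are uncertain.

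Further named genes had separate groups without reaching the threshold. Among the higher ones were the transporter-like gene MFSD10 (0.21), clip2 (0.22), whose product links microtubules, and the sulfhydryl oxidase gene QSOX2 (0.20), whose locus overlaps another. OAF (2 of 2) was lower (-0.30). Over the region both mutants lay above both controls in 33 genes (20%; background 15.6%) and below both in 31 genes (18.8%; background 9.14%), 64 in all (38.8%; background 24.8%). The authors' 95% intervals of both mutants lay apart from those of both controls in 4 genes (2.42%; background 0.64%). These were kntc1 and hnrpkl above (2 genes; background 0.231%) and CABZ01044346.1 and gatsl2 below (2 genes; background 0.409%). Of the 17 genes, 12 had all 4 values inside their own deposited interval, but hnrpkl, gatsl2, slc25a46, nrarpb and si:dkeyp-117b8.4 had 0 of 4 inside, so their intervals do not bound their values.

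The 17 genes were counted along the region, against a background of 1.99% over all loci tested. By intervals of 5 Mb, 3 of 21 genes from 50 to 55 Mb, 5 of 42 from 55 to 60 Mb, 5 of 48 from 60 to 65 Mb and 4 of 54 from 65 to 70 Mb were under an unadjusted limma p of 0.05. By intervals of 2.5 Mb, the stretch from 60 to 62.5 Mb held 0 of 14. All 3 in the first interval of 5 Mb were lower in the mutants (background 0.907%), while 3 of the 4 in the last were higher (background 1.08%). At 3 places both of a pair of neighbouring genes were under the threshold, each time both lower: FDXACB1 and alg9, 5.48 kb apart, coq4 and bspry, 0.361 kb apart, and gatsl2 and wbscr16, 0.683 kb apart. Over all 164 neighbouring pairs the difference had the same sign in 85 (51.8%). Neighbouring pairs elsewhere in the genome were not counted.

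**Figure D2:**
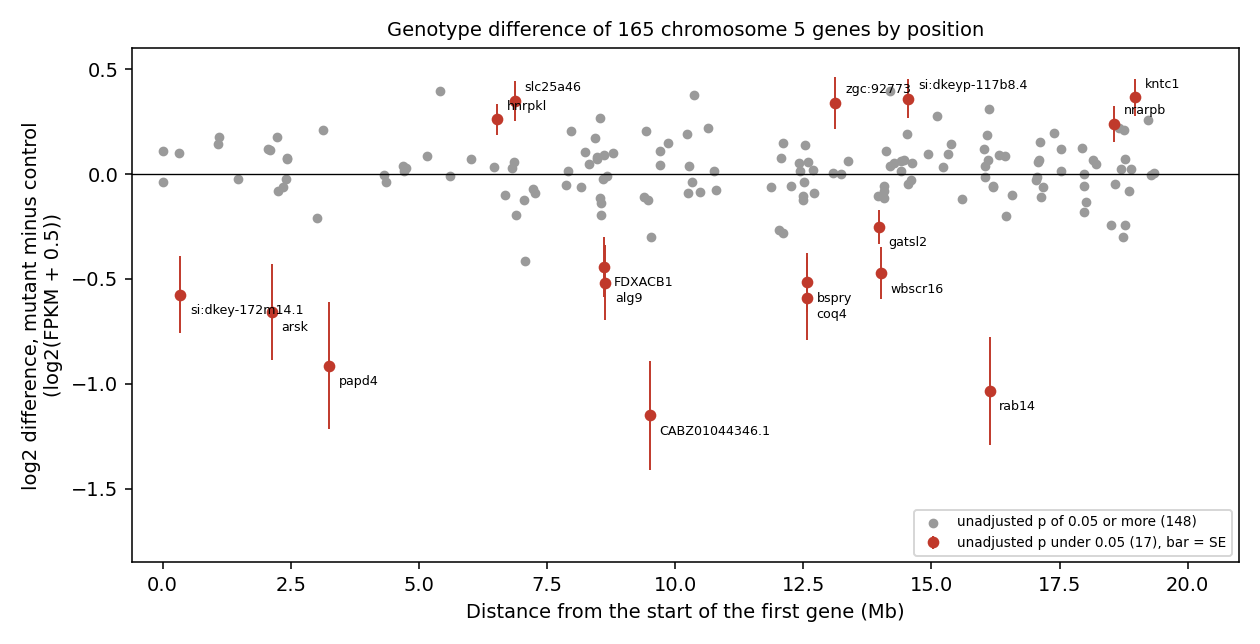
The x axis is the distance in Mb from the start of the first of the 165 genes and the y axis the log2(FPKM + 0.5) difference, mutant minus control. Red points with SE bars are the 17 genes with an unadjusted limma p under 0.05 and grey points the other 148. The red points run from si:dkey-172m14.1 at the left to kntc1 at the right.

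Other parts of the genome were counted under the same gene rule. The 10.3% of the region compares with 1.49% of 11996 genes on other chromosomes and scaffolds, and with a highest share of 2.51% among the 24 other chromosomes, for chromosome 4. Along the rest of chromosome 5, in steps of 10 Mb chosen after seeing the data, the share was 8.75% of 80 genes from 0 to 10 Mb and 8.06% of 62 genes from 10 to 20 Mb, the part with tbx1. It was 5.48% of 146 genes from 20 to 30 Mb, 12.1% of 132 genes from 30 to 40 Mb, 3.85% of 78 genes from 40 to 50 Mb and 1.45% of 69 genes above 70 Mb. The share of the region lay between those of other parts of the chromosome. The genes just below 50 Mb and above 70 Mb had the 2 lowest shares on it. The difference between parts was not tested. In the region 6 genes were higher and 11 lower in mutants, against 110 higher and 69 lower on other chromosomes. The median difference was 0.01 here and 0.02 on other chromosomes, while the median size of the difference, ignoring sign, was 0.0919 here and 0.0649 on other chromosomes. Beyond 0.3 on the log2 scale there were 8 genes above and 11 below, 19 in all (11.5%), and 146 within. Over all loci tested 3.3% were above and 2.36% below, 5.67% in all. Under the same gene rule it was 4.44% of 12728 loci, 351 above and 214 below, and 4.11% on other chromosomes. Of the 8 above, pcsk5a (log2 0.39) passed the limit of 1 FPKM only through the mutants (mean 1.22 FPKM, control mean 0.837 FPKM). The 11 below include CABZ01044346.1, rab14 and papd4, which passed it only through the controls.

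Low and high genes were counted apart. Under 5 FPKM, 10 of 61 genes (16.4%) were under the unadjusted threshold, 8 of them lower in the mutants; on other chromosomes the share at that level was 2.16%, with 65 higher and 31 lower. At 5 FPKM or more it was 7 of 104 genes (6.73%), 4 higher and 3 lower, against 1.10% on other chromosomes. These level classes were chosen after seeing the data. The 8 lower genes under 5 FPKM include CABZ01044346.1, rab14 and papd4, whose mutant means were under 1 FPKM. The rule thus took these in through the controls, where they were higher. Genes taken in this way were not counted on other chromosomes. Control 1 was above control 2 in 8 of the 11 lower genes, which include CABZ01044346.1, rab14, papd4 and arsk. How often control 1 was above control 2 over the region or over all loci was not counted, so this number has no background. Without control 1, 5 genes were lower at the threshold (background 1.19%), and without mutant 1, 3 (background 1.12%); the part of these libraries in the result was not tested.

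**Figure D3:**
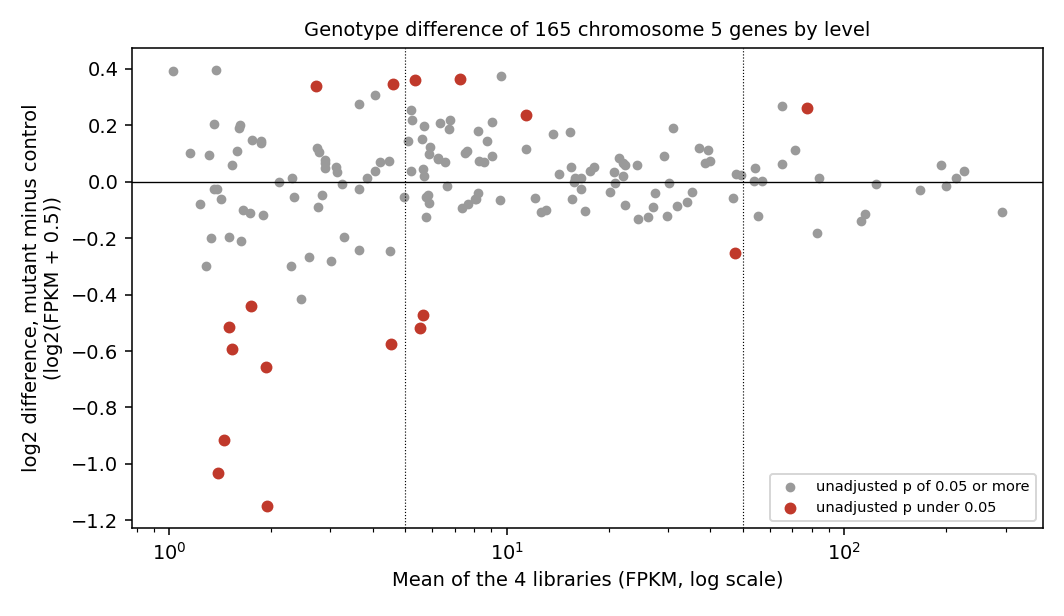
The x axis is the mean of the 4 libraries in FPKM on a log scale, with dotted lines at 5 and 50 FPKM, and the y axis the log2(FPKM + 0.5) difference, mutant minus control. The low side below -0.4 is filled by genes under 6 FPKM, and all 19 genes at 50 FPKM or more lie within 0.3.

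The libraries were also compared by their number. Comparing libraries numbered 2 with libraries numbered 1, over both genotypes, 25 genes (15.2%) had an unadjusted limma p under 0.05, 16 higher (background 9.9%) and 9 lower (background 9.47%) in number 2, against 19.4% of all loci tested. With genotype as a term in the fit it was 29 of 165 genes, against 18% of all loci, and with no minimum on the mean 26 of 165, against 13.8%. None passed an adjusted p of 0.05 (lowest adjusted p = 0.142 in limma; 0.0521% of all loci passed). The main fits by genotype and by library number each left the other factor in the residual, unlike the fit with genotype as a term. In the main fits a gene with a large genotype difference was thus kept from a small p by library number, and the reverse. The copper transporter gene slc31a1 was at 61.3 FPKM in mutant 2 and 59.6 FPKM in control 2, against 48.8 FPKM in mutant 1 and 46.9 FPKM in control 1 (log2 0.33, SE 0.0443). PRDM12, a regulator gene of sensory and hindbrain or spinal neurons, was at 12.7 FPKM in mutant 2 and 13.7 FPKM in control 2, against 17.8 FPKM in mutant 1 and 18.1 FPKM in control 1 (log2 -0.43, SE 0.0597). nr2f1a, which encodes a COUP-type nuclear receptor of brain and heart development, was at 7.59 FPKM in mutant 2 and 6.87 FPKM in control 2, against 10.8 FPKM in mutant 1 and 9.66 FPKM in control 1 (log2 -0.47, SE 0.0894). In each of these genes the libraries separated by number, not by genotype. The same held for ssna1 (0.29) and aatf (0.28), with 1 copy of TTF1 at 0.28. With robust empirical Bayes, slc31a1 (adjusted p = 0.0475 in limma) and PRDM12 (adjusted p = 0.0482 in limma) passed. In that fit 1.31% of all loci passed, so 2 of 165 genes did not exceed the share over all loci. The labels give the number no meaning. In 78 genes (47.3%) the genotype difference was larger in size than that by library number, against 35.6% of all loci under the same rule.

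**Figure D4:**
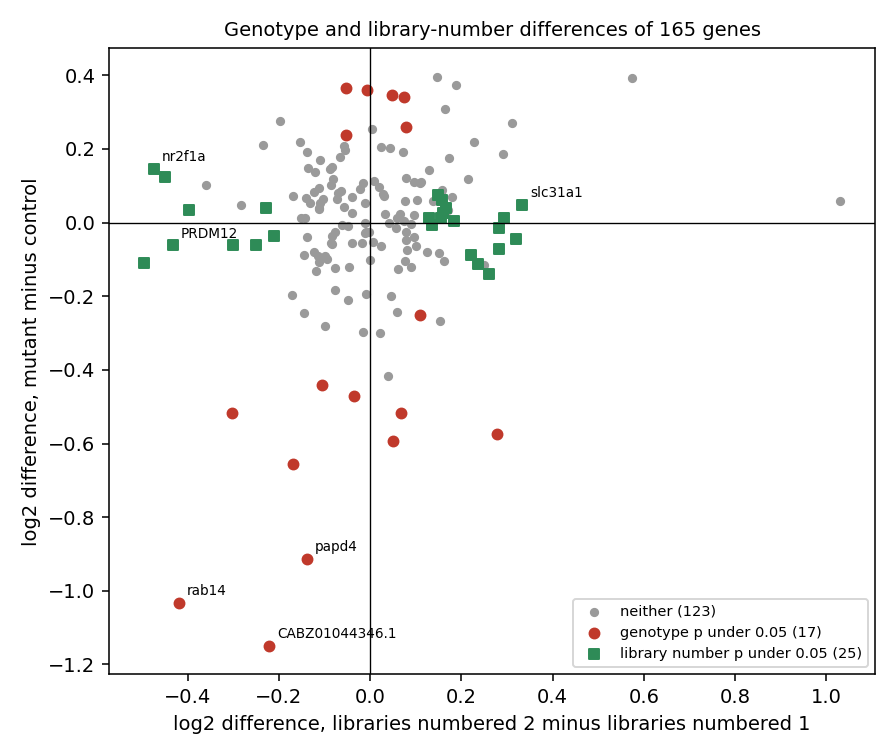
The x axis is the log2 difference of libraries numbered 2 minus libraries numbered 1 and the y axis the log2 difference of mutants minus controls, both from log2(FPKM + 0.5). Red circles are 17 genes under an unadjusted limma p of 0.05 by genotype, green squares 25 genes under it by library number and grey points the other 123. Since each comparison was fitted without the other as a term, the separation of the red and green points is built in. The red points reach -1.15 on the vertical axis, for CABZ01044346.1.

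Neighbouring copies of a gene could be compared within the region. Of 3 adjacent annexin A1 genes, calcium-dependent membrane-binding proteins, anxa1c was at 200 and 197 FPKM in the mutants, against 192 and 210 FPKM in the controls. anxa1b was at 193 and 200 FPKM in the mutants, against 175 and 204 FPKM in the controls, and ANXA1 (4 of 4), chosen after its values were seen, at 16.8 and 16 FPKM in the mutants, against 16.3 and 17.1 FPKM in the controls. Groups overlapped for all 3, and their differences ran from -0.03 to 0.06. Of 5 loci of TTF1, which in mammals encodes the termination factor of RNA polymerase I, TTF1 (3 of 6) was at 4.07 and 5.03 FPKM in the mutants, against 3.49 and 3.64 FPKM in the controls (log2 0.31, 95% interval -0.04 to 0.66). TTF1 (4 of 6) was at 5.91 and 7.30 FPKM in the mutants, against 5.98 and 7.37 FPKM in the controls, and followed the library number. The other 3 TTF1 loci, chosen after their values were seen, differed by 0.07 to 0.19. No source used here says how reads shared between such copies were assigned, so the split among copies is uncertain.

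At the limits of the rule, lysmd3 was the first gene inside (50455343 to 50463371), with 21.5 and 18.5 FPKM in the mutants, against 22.1 and 19.0 FPKM in the controls; tmem161b lay just outside, with a mean of 4.50 FPKM. stip1 was the last inside and clip1a, with a mean of 4.82 FPKM, the first beyond. By level pcsk5a (1.03 FPKM) and C5H11orf88 (1.15 FPKM) were the lowest taken, and C5H2orf42 (0.971 FPKM) and tmem8c (0.969 FPKM) the highest not taken. The shortest gene taken, si:ch211-220b11.4, spanned 1581 bp. Of the loci under 300 bp that reached 1 FPKM, the longest was the small nucleolar RNA gene SNORA1, at 134 bp. Of the loci of 300 bp or more that were left out, 182 were below 1 FPKM, 39 of them listed at 0 in all 4 libraries. Another locus overlapped 26 of the 165 genes, and in 11 of these it also reached 1 FPKM.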

How the data were processed

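Per the labels' protocols, polyadenylated RNA of embryos was made into TruSeq libraries and sequenced in paired ends. Cuffdiff 2.0.2, Cufflinks 2.1.1, TopHat2 2.0.8 and the build Zv9 (danRer7) are listed, with no role, in the processing notes of the submitters. The authors deposited FPKM values with 95% bounds and a status per gene and library; the file headers call them RPKM, and a stray header line says FPKM. Counts were not used here. Coordinates are those of the file.

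Loci with status OK in all 4 libraries and a mean of at least 1 FPKM (13448) were tested as log2(FPKM + 0.5) with limma 3.58.1 in R 4.3.3 (trend, two-sided, Benjamini-Hochberg over all, threshold 0.05; 4.66 degrees of freedom). The fit was tested on simulated data. The genes and the function lists, which match symbols by pattern, were chosen with earlier results of these data known. Named genes were set by rule: lowest p per direction with separate groups, highest means, list leaders, region ends, smallest differences at high level, and lowest p by library number. Current symbols came from a table of gene IDs that held 122 of 165. The half-width of the authors' 95% interval had a median of 9.40% and 9.95% of the value in the mutants and 8.54% and 9.55% in the controls. Figures used matplotlib 3.10.9.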

Additional observations from a re-analysis of the deposited data

How the results depend on the processing

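The count of genes past an adjusted p of 0.05 was 0 under all alternatives run (pseudocounts, level minimum, rescaling, trend, robust fit, short loci left out, a threshold of 0.10, the replicate number as a block, and each library left out), with a lowest adjusted p of 0.0726 in limma, with the block and short loci left out. The count of 17 under an unadjusted limma p of 0.05 was 24 with the replicate block alone (background 4.54%), of which 11 were higher (background 2.51%) and 13 lower (background 2.04%). It was 33 with the block and short loci left out (background 6.57%), of which 18 were higher (background 3.9%) and 15 lower (background 2.67%), so that higher genes then outnumbered lower ones. At a mean of at least 5 FPKM in the fit it was 6 of 104 genes (background 1.72%), 2 of them lower (background 0.824%). Among the 104 genes of that level in the fit over all loci it was 7, 3 of them lower. Over all loci of that level it was 142 of 8616 (1.65%), 73 of them lower. The latter alternative was chosen after seeing the data, and fewer genes were counted in both. Leaving out each library gave 6 to 15 in all, 2 to 6 higher and 3 to 9 lower. With the authors' intervals in place of the values, the 33 genes above and 31 below became 2 and 2. By library number, 2 genes passed an adjusted p of 0.05 in the robust limma fit (background 1.31%). Without trend, 15 were under an unadjusted limma p of 0.05 by library number (background 17.4%). The median and median size of the differences, and the highest share per interval at widths of 2.5 and 10 Mb, stayed close to their values. Rescaling moved the median of all loci by at most 0.0189.

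No label gives the replicate number a meaning, and with 2 pairs it cannot be shown to pair the libraries. The deviations of mutant 1 and control 1 from their group means correlated at -0.0051 over all loci tested, short loci included. Over the 165 genes this correlation was 0.21. By library number 19.4% of all loci tested had an unadjusted limma p under 0.05, against 1.99% by genotype. Among the 165 genes it was 15.2% by library number and 10.3% by genotype. Many loci thus differed by number over both genotypes, and the value of -0.0051 does not show that the libraries are unpaired. Whether they are paired was not tested.

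In each of the 17 both mutants lay on one side of both controls, so leaving out a library could not turn their sign. Of 72 named genes, the difference turned sign on leaving out a library in 26, none of them among the 17. Their log2 differences then ran as follows: MIA -0.29 to 0.012, cryabb -0.32 to 0.088, polr2j -0.27 to 0.047, prkrip1 -0.26 to 0.082, aatf -0.23 to 0.090, PRDM12 -0.30 to 0.18, fbxw5 -0.17 to 0.089, lysmd3 -0.14 to 0.070, sepw1 -0.064 to 0.0064, anxa1c -0.080 to 0.051, TTF1 (4 of 6) -0.16 to 0.13, ppp2r1a -0.044 to 0.027, taf6 -0.032 to 0.031, stip1 -0.037 to 0.044, lsmd1 -0.14 to 0.15, edf1 -0.091 to 0.12, tia1 -0.065 to 0.090, ssna1 -0.15 to 0.18, GLDC -0.024 to 0.072, gna14 -0.097 to 0.17, ccnb1 -0.069 to 0.15, slc31a1 -0.12 to 0.22, anapc2 -0.055 to 0.16, anxa1b -0.053 to 0.17, LIG3 -0.017 to 0.17 and nr2f1a -0.097 to 0.39. Under quantile normalization the sign also turned for sepw1 (0.0035), anxa1c (0.019) and ppp2r1a (0.014), and under median-ratio rescaling for tia1 (-0.0073), edf1 (-0.0074), ssna1 (-0.0067), stip1 (-0.016) and lsmd1 (-0.015). All of these lie close to 0, and the cause was not tested.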
